A study of Homo sapiens with 9 samples.

Results

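The INK4 and CIP/KIP genes encode the protein inhibitors of the cyclin dependent kinases that drive the cell cycle. The INK4 members are CDKN2A, CDKN2B, CDKN2C and CDKN2D, the CIP/KIP members are CDKN1A, CDKN1B and CDKN1C, and CDKN3, a phosphatase that acts on cyclin dependent kinases, belongs to neither family. The 8 genes were taken by symbol from a table of 60612 genes. The rule used no measured value, but members were chosen with earlier results of these data known. Of the 8, 7 passed the filter on low counts, as did 20157 genes in all, and CDKN1C did not.

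INK4 proteins bind CDK4 and CDK6 and keep them from pairing with D-type cyclins, which leaves the retinoblastoma protein unphosphorylated and E2F factors restrained. CIP/KIP proteins bind a wider range of cyclin and kinase pairs, with CDK2 complexes as their best known targets. CDKN2B is a known target of TGF-beta signalling in epithelial cells, and CDKN2A and CDKN2B lie side by side in a region often deleted in human tumours.

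The RNA came from HepG2, an established line of human liver carcinoma cells that keeps many hepatocyte functions. Groups of 3 libraries each were given 50 µM PQY23_1, 50 µM PQY09 or 0.1% DMSO, the solvent control, 9 libraries in all. According to the title of the series, PQY09 is Butyrolactone I, a product of Aspergillus fungi that is known to inhibit CDK1 and CDK2, and PQY23_1 is derived from it. How long the cells were exposed is not given.

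Total counts were 85050531 to 100153246 in PQY23_1 libraries, 95622119 to 105708329 in PQY09 libraries and 87122734 to 107538450 in DMSO libraries. None of the 8 hepatocyte-like markers, ALB and AFP among them, was at 0. Their sum was 24993.6 to 27453.6 CPM (counts scaled to library size) under PQY23_1, 26341.9 to 28599.6 under PQY09 and 28248.8 to 31101.2 in DMSO. The sum does not stand for each marker, since single markers went either way. ALB was higher under PQY09 (7570.42 to 7639.82 CPM) than in DMSO (6555.23 to 6593.67). APOB was lower under PQY09 (7081.9 to 9976.52 CPM) than in DMSO (9993.55 to 13227.1). The 5 fibroblast markers summed to at most 6.70 CPM under PQY23_1, 5.88 under PQY09 and 7.82 in DMSO, with COL1A2 at 0 throughout. Of the 4 blood markers, HBB and CD3E were at 0 and PTPRC, which defines leukocytes, was at or near 0, and the summed 38.9 to 51.5 CPM under PQY23_1, 25.3 to 34.0 under PQY09 and 25.9 to 33.3 in DMSO came from CD68, a lysosomal gene not restricted to blood cells. The 3 endothelial markers summed to at most 2.29, 3.39 and 2.40 CPM in the same order of groups. Genes of the mitochondrial genome took 14.5 to 16.4% of counts under PQY23_1, 12.5 to 14.6% under PQY09 and 12.6 to 14.1% in DMSO. The part of these differences in the results on the inhibitor genes was not tested. In bulk RNA, fewer cells that express a gene and less of its RNA per cell cannot be told apart.

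In the coordinates of the file (hg38), CDKN2A (ENSG00000147889) spans chr9:21967753-21994873 and CDKN2B (ENSG00000147883) chr9:22002903-22009305, both on the minus strand and 8030 bases apart. The single CDKN2A row pools 14 transcripts, and the messages for p16INK4a and p14ARF, which share exons but encode unrelated proteins, were not separated. CDKN2C (ENSG00000123080) lies at chr1:50960745-50974634 on the plus strand and CDKN2D (ENSG00000129355) at chr19:10566460-10569059 on the minus strand. CDKN1A (ENSG00000124762) lies at chr6:36676460-36687337, CDKN1B (ENSG00000111276) at chr12:12715058-12722369 and CDKN3 (ENSG00000100526) at chr14:54396849-54420218, all on the plus strand, and CDKN1C (ENSG00000129757) at chr11:2883213-2885771 on the minus strand. CDKN2B-AS1, a long noncoding RNA on the plus strand, overlaps both CDKN2A and CDKN2B, and DINOL overlaps CDKN1A on the opposite strand. The strand setting of the counting is not given, so reads of these pairs cannot be told apart if it was unstranded. Their largest counts were 150 for CDKN2B-AS1 and 82 for DINOL, against at least 343 for CDKN2B and 2280 for CDKN1A. AC008115 lies within CDKN1B on the same strand, so stranded counting could not separate their reads either. Its largest count was 108, against at least 4762 for CDKN1B.

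Promoter windows of 300 bases, 250 before and 50 after a RefSeq start site (GRCh38.p14), were found for 7 of the 8 genes, with none matched to CDKN1C. The windows of CDKN2B and CDKN2D are shown because these were the inhibitor genes that passed the test, and that of CDKN1A because it varied most between replicates. Capitals mark the GC box GGGCGG, the core of a binding site of SP1, read on either strand, so that CCGCCC is a box on the opposite strand. CDKN2B is chr9:22009256-22009555 (minus strand), CDKN2D is chr19:10568930-10569229 (minus strand) and CDKN1A is chr6:36678464-36678763 (plus strand), each written 5′ to 3′ along its gene.
CDKN2B: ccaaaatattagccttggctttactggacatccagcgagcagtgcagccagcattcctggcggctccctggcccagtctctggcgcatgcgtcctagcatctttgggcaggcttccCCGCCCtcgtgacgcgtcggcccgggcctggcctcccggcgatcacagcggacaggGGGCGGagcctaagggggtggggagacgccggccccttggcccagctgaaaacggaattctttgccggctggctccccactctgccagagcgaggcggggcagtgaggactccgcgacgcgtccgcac
CDKN2D: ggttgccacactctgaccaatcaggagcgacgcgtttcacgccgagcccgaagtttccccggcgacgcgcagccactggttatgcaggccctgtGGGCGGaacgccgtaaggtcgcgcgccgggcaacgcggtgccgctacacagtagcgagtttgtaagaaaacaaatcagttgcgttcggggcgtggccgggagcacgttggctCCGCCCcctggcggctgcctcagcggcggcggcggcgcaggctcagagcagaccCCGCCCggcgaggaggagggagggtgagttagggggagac
CDKN1A: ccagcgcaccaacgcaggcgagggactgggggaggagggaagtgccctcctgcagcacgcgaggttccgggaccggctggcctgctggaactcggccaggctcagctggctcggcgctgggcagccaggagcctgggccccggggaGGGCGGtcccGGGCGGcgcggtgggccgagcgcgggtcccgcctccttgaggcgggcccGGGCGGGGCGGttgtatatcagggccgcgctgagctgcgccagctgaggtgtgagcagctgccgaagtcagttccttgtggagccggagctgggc
The CDKN2B window was 67.3% G or C with 25 CpG pairs, the CDKN2D window 68.0% with 36 and the CDKN1A window 74.3% with 29, against medians of 58.7% and 14 over 35116 windows. CDKN2B had 2 GC boxes, CDKN2D 3 and CDKN1A 4, and the last pair in CDKN1A share a base. A GC box occurs in 45% of all windows. The letters CCAAT, found in 34.6% of all windows, occurred once in CDKN2D (first base at -234 from the start site) and in neither of the other two. The SMAD element CAGACA and the AP-1 site TGACTCA, in 16.9% and 4.95% of all windows, were in none of these 3. A match of letters is a description of the window and not of a bound site.

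CDKN2B, which encodes p15INK4b, was the inhibitor gene with the clearest difference. It was lower under PQY09 than in DMSO, by nearly 2-fold, and higher under PQY23_1 than under PQY09, by more than 2-fold. CDKN2D, which encodes p19INK4d, ran the other way between the compounds. CDKN1B and CDKN3 differed by at most 0.16 on the log2 scale in any contrast, with no call, and CDKN1A differed more among replicates than among groups.

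CDKN2B had 10.2, 8.40 and 10.7 CPM in PQY23_1 libraries, 3.51, 3.88 and 4.02 CPM in PQY09 libraries and 7.10, 8.10 and 7.05 CPM in DMSO libraries. All 3 PQY09 libraries lay below every DMSO library and every PQY23_1 library, and the PQY23_1 libraries lay above the DMSO libraries with no overlap. Raw counts behind these values were 702 to 1003, 343 to 426 and 617 to 887. Between PQY09 and DMSO the log2 fold change was -0.96 ± 0.13 (SE), a 1.95-fold fall with a 95% interval of -1.25 to -0.67 (edgeR quasi-likelihood test, Benjamini-Hochberg adjusted p = 0.00609). Between PQY23_1 and DMSO it was 0.40 ± 0.13 (0.11 to 0.69), which did not pass (edgeR adjusted p = 0.158). Between PQY23_1 and PQY09 it was 1.36 ± 0.13, a 2.57-fold difference (1.07 to 1.65; edgeR adjusted p = 0.00128). Both calls were kept in all 17 alternative analyses. On the log2(FPKM + 1) scale, which understates changes of low genes, limma gave -0.50 for PQY09 against DMSO and 0.74 for PQY23_1 against PQY09. The contrasts with DMSO share their control libraries and are given side by side for that reason.

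CDKN2D had 4.79, 4.24 and 3.60 CPM in PQY23_1 libraries, 6.57, 6.53 and 6.68 CPM in PQY09 libraries and 4.54, 4.95 and 4.53 CPM in DMSO libraries. Every PQY09 library lay above every library of the other groups, and the 3 differed little, with an SD of 0.0769 CPM around a mean of 6.59. The ranges of PQY23_1 and DMSO overlapped. CDKN2D was lower under PQY23_1 than under PQY09, with a log2 fold change of -0.65 ± 0.13, a 1.57-fold difference (95% interval -0.94 to -0.36; edgeR adjusted p = 0.038). That call was lost when any one library other than PQY23_1 replicate 1 was left out (8 of 9 cases, edgeR adjusted p up to 0.133), and with the replicate number as a block (0.0937). Against DMSO the log2 fold change was 0.50 ± 0.13 under PQY09 (edgeR adjusted p = 0.086) and -0.15 ± 0.13 under PQY23_1 (edgeR adjusted p = 0.639). DESeq2 called the PQY09 difference (log2 0.49, adjusted p = 0.00592), and so did limma on log2(FPKM + 1) (0.39, adjusted p = 0.021).

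**Figure D1:**
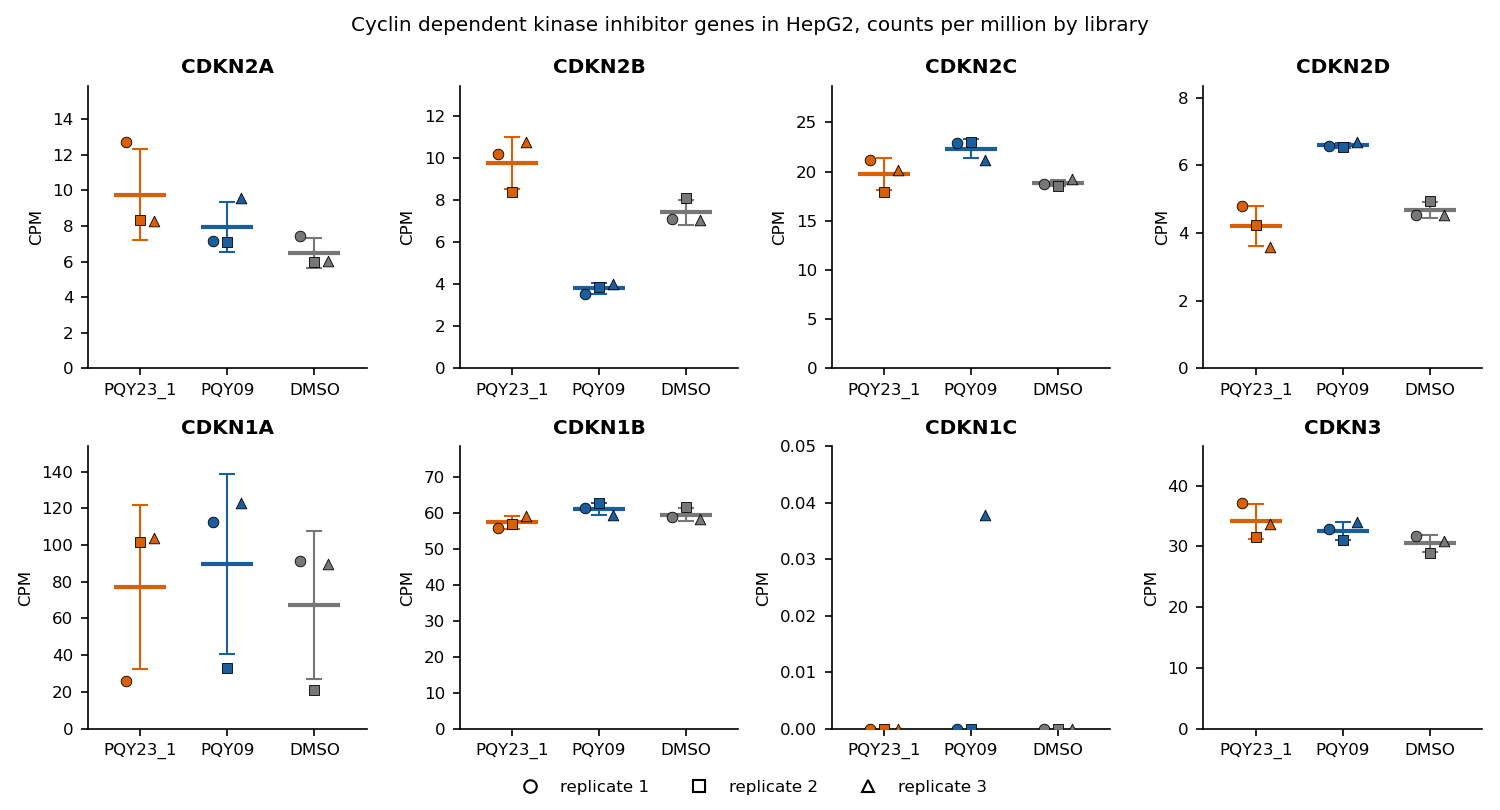
Expression of the 8 inhibitor genes in CPM (counts scaled to library size, vertical axes from 0) under PQY23_1, PQY09 and DMSO; points are single libraries, wide bars means and whiskers SD of 3, left out for CDKN1C. CDKN2B of PQY09 libraries, 3.51 to 4.02 CPM, lies below all others, CDKN2D of the same libraries, 6.53 to 6.68 CPM, above all others, and CDKN1A has 1 low library in each group.

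CDKN2A had 12.7, 8.33 and 8.28 CPM in PQY23_1 libraries, 7.15, 7.12 and 9.57 CPM in PQY09 libraries and 7.43, 5.96 and 6.03 CPM in DMSO libraries. PQY23_1 replicate 1 stood above all others, and the other PQY23_1 libraries exceeded every DMSO library but not PQY09 replicate 3. The log2 fold change against DMSO was 0.59 ± 0.20 under PQY23_1 (edgeR adjusted p = 0.19) and 0.30 ± 0.20 under PQY09 (edgeR adjusted p = 0.571). Between the compounds it was 0.30 ± 0.20, with a 95% interval of -0.17 to 0.76 (edgeR adjusted p = 0.571).

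CDKN2C, which encodes p18INK4c, had 21.1, 18.0 and 20.2 CPM under PQY23_1, 22.9, 23.0 and 21.2 CPM under PQY09 and 18.8, 18.6 and 19.2 CPM in DMSO. The PQY09 libraries exceeded all libraries of both other groups, by a narrow margin over PQY23_1 replicate 1. The log2 fold change was 0.24 ± 0.08 for PQY09 against DMSO (edgeR adjusted p = 0.177), 0.07 ± 0.08 for PQY23_1 against DMSO (0.769) and -0.18 ± 0.08 for PQY23_1 against PQY09 (0.364), and none passed.

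Within a library, the ratio of CDKN2B to CDKN2D counts does not depend on library scaling. It was 2.13, 1.98 and 2.98 under PQY23_1, 0.535, 0.594 and 0.603 under PQY09 and 1.56, 1.64 and 1.56 in DMSO. CDKN2B thus had more counts than CDKN2D in the 6 PQY23_1 and DMSO libraries and fewer in the 3 PQY09 libraries, and the ranges of the 3 groups were separate. A ratio shows unequal change and not which gene moved.

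Levels of different genes were compared per length, in the deposited FPKM. The lengths implied by counts and FPKM were 5105 to 5183 bases for CDKN2A, 4706 to 4770 for CDKN2B, 3549 to 3596 for CDKN2C and 1772 to 1798 for CDKN2D. The order rests on these lengths. In CPM, not scaled by length, CDKN2A averaged above CDKN2D under PQY23_1 (9.76 and 4.21), PQY09 (7.95 and 6.59) and DMSO (6.47 and 4.67). CDKN2C was the highest INK4 gene in every group, at 5.44 ± 0.42 FPKM under PQY23_1, 6.34 ± 0.37 under PQY09 and 5.27 ± 0.0413 in DMSO (SD, n = 3 each). CDKN2D came next at 2.32 ± 0.324, 3.74 ± 0.0131 and 2.62 ± 0.16 FPKM in the same order of groups. CDKN2B averaged 2.03 ± 0.244 FPKM under PQY23_1, 0.813 ± 0.0519 under PQY09 and 1.56 ± 0.145 in DMSO, and CDKN2A averaged 1.87 ± 0.479, 1.56 ± 0.256 and 1.26 ± 0.158. CDKN2B exceeded CDKN2A in 2 of 3 PQY23_1 libraries, 0 of 3 PQY09 libraries and 3 of 3 DMSO libraries. Under PQY23_1 the ranges of CDKN2D, CDKN2B and CDKN2A overlapped between neighbours, while in PQY09 and DMSO each of the 4 was separate from the next.

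CDKN2B made up 16.2 to 19.6% of the summed INK4 FPKM under PQY23_1, 6.06 to 6.86% under PQY09 and 13.9 to 15.8% in DMSO. CDKN2D made up 17.5 to 22.0%, 29.8 to 30.2% and 23.7 to 25.6% in the same order. The INK4 sum itself was 10.7 to 12.9 FPKM under PQY23_1, 12.3 to 12.6 FPKM under PQY09 and 10.5 to 11.0 FPKM in DMSO. The summed level was thus higher in every PQY09 library than in every DMSO library, although CDKN2B was lower. The sum and the shares rest on the same implied lengths, and the CDKN2A part pools p16INK4a and p14ARF messages.

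**Figure D2:**
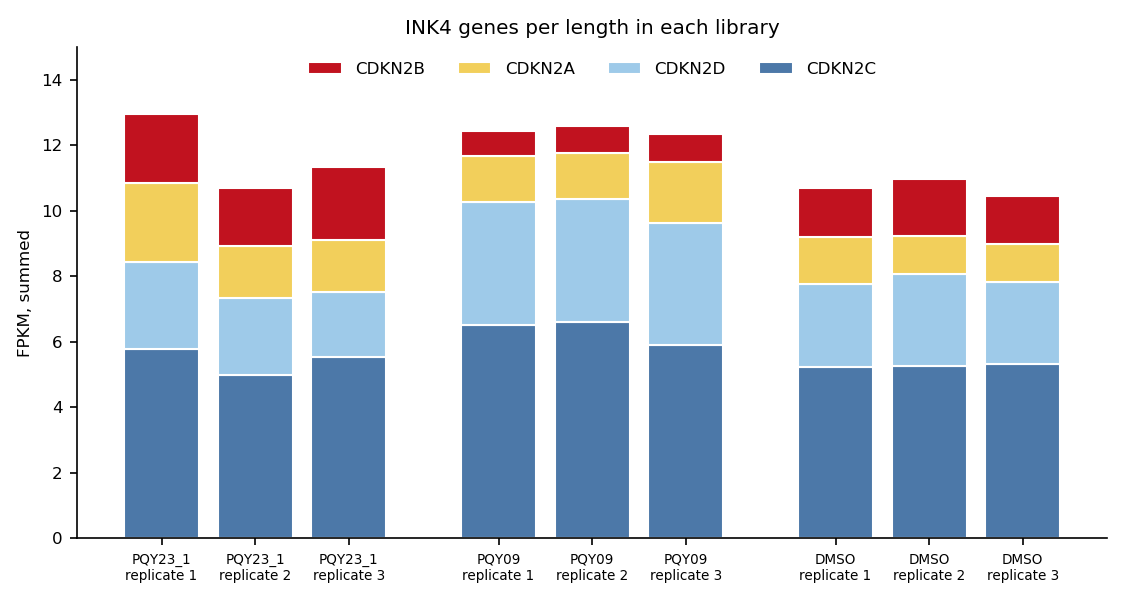
Stacked FPKM (vertical axis from 0) of the 4 INK4 genes in each of the 9 libraries, PQY23_1 then PQY09 then DMSO. CDKN2B is the top segment of each bar and is thinnest in the 3 PQY09 libraries, at 6.06 to 6.86% of the sum, while CDKN2C is the largest segment in every library.

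CDKN1A, which encodes p21, had 25.9, 102 and 104 CPM under PQY23_1, 113, 33.2 and 123 CPM under PQY09 and 91.2, 20.8 and 89.8 CPM in DMSO. Each group thus held 1 low library, PQY23_1 replicate 1, PQY09 replicate 2 and DMSO replicate 2, with the other two libraries 3.93- to 4.02-fold, 3.40- to 3.71-fold and 4.32- to 4.38-fold above it. The SD between replicates of its log2 CPM, pooled over groups, was 1.15, larger than that of 99.0% of 10848 genes with a mean of at least 5 CPM (median 0.127). The groups overlapped throughout, and the log2 fold change was 0.41 ± 0.71 for PQY09 against DMSO (95% interval -1.19 to 2.02; edgeR adjusted p = 0.858), 0.20 ± 0.71 for PQY23_1 against DMSO (adjusted p = 0.938) and -0.22 ± 0.71 for PQY23_1 against PQY09 (adjusted p = 0.935). These intervals do not show that CDKN1A was unaffected, and its sign changed when single libraries were left out. DINOL, its antisense neighbour, had 0.284, 0.551 and 0.725 CPM under PQY23_1, 0.236, 0.627 and 0.520 CPM under PQY09 and 0.886, 0.520 and 0.782 CPM in DMSO.

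CDKN1B, which encodes p27, was among the steadiest genes, at 55.9, 57.0 and 59.3 CPM under PQY23_1, 61.3, 62.9 and 59.4 CPM under PQY09 and 59.0, 61.6 and 58.2 CPM in DMSO. Its SD between replicates, 0.0423 on the log2 scale, was larger than that of only 2.86% of the same genes. The log2 fold change was 0.04 ± 0.05 for PQY09 against DMSO, -0.05 ± 0.05 for PQY23_1 against DMSO and -0.09 ± 0.05 for PQY23_1 against PQY09, and none passed (edgeR adjusted p 0.831, 0.71 and 0.495). CDKN1C, which encodes p57, had 0 counts in 8 of 9 libraries and 4 counts in PQY09 replicate 3, and was not tested. A count of 0 allows up to 12 counts here, 0.11 to 0.144 CPM, taking 3 fragments of 4 counts each as the limit.

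CDKN3 had 37.2, 31.5 and 33.8 CPM under PQY23_1, 32.8, 31.1 and 34.0 CPM under PQY09 and 31.7, 29.0 and 31.0 CPM in DMSO, with overlapping ranges. The log2 fold change was 0.16 ± 0.08 for PQY23_1 against DMSO (edgeR adjusted p = 0.361), 0.09 ± 0.08 for PQY09 against DMSO (adjusted p = 0.658) and 0.07 ± 0.08 for PQY23_1 against PQY09 (adjusted p = 0.78). By mean FPKM, CDKN1A and CDKN1B were the highest of the 8 genes in all groups, at 21.4 ± 12.4 and 18.6 ± 0.572 under PQY23_1, 25.5 ± 13.8 and 20.4 ± 0.881 under PQY09, and 18.9 ± 11.2 and 19.6 ± 0.817 in DMSO (SD, n = 3 each), overlapping each other because of the low CDKN1A libraries. CDKN3 followed at 15.4 ± 1.21, 15.2 ± 0.482 and 14.0 ± 0.51 FPKM, above every INK4 gene. In the low CDKN1A library of each group, CDKN1A (7.14, 9.58 and 5.94 FPKM) lay below CDKN3 (16.7, 14.6 and 13.5 FPKM).

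**Figure D3:**
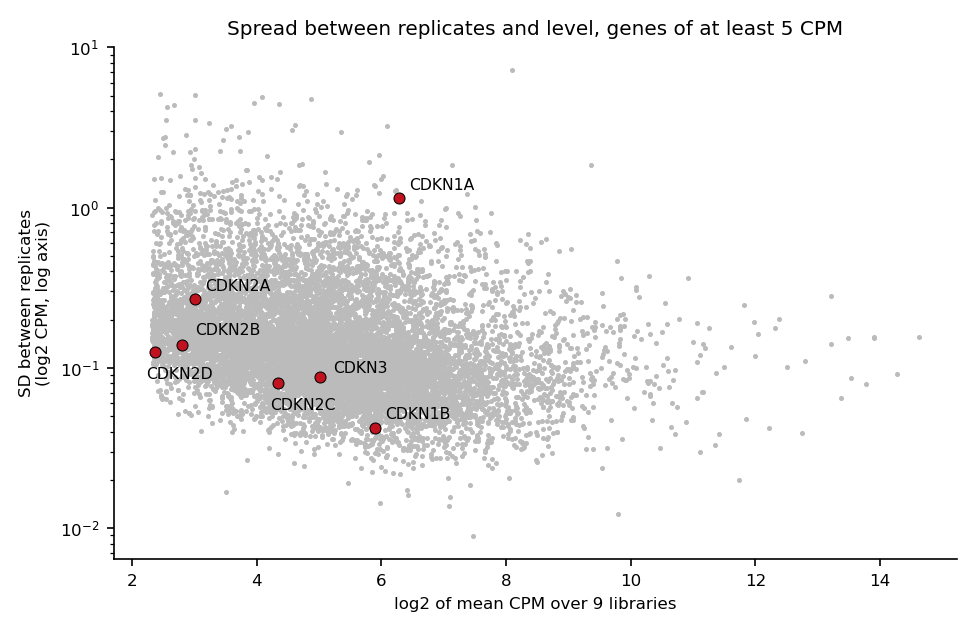
SD between replicates of log2 CPM (vertical log axis, pooled over the 3 groups) against the log2 of mean CPM for 10848 genes of at least 5 CPM (grey) and the 7 tested inhibitor genes (red). CDKN1A lies at 1.15, above 99.0% of genes, and CDKN1B at 0.0423, near the bottom.

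Over the 7 tested genes, 1 was called for PQY09 against DMSO (CDKN2B, lower), 0 for PQY23_1 against DMSO and 2 for PQY23_1 against PQY09 (CDKN2B higher, CDKN2D lower). The share called among all 20157 genes tested was 2.85%, 2.55% and 2.22% in these contrasts (edgeR, adjusted p below 0.05). Split by direction, it was 1.78% higher and 1.07% lower, 1.51% and 1.04%, and 1.22% and 1%. DESeq2 called 7.26%, 7.28% and 6.21% of the same genes, and limma on log2(FPKM + 1) called 6.07%, 5.79% and 5.03% of 11646 genes. For PQY23_1 against DMSO, 2 members had an unadjusted p below 0.05 (16.3% of all genes), and DESeq2 and limma also called 0. Library ranges did not overlap for 3, 2 and 4 of the 7, against 24.4%, 22.5% and 22% of all genes. The median log2 fold change over the 7 was 0.24, 0.16 and -0.09, against 0.00323, 0.00738 and -0.00891 over all genes tested. Taken without sign, the median over all genes was 0.2, 0.206 and 0.198.

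**Figure D4:**
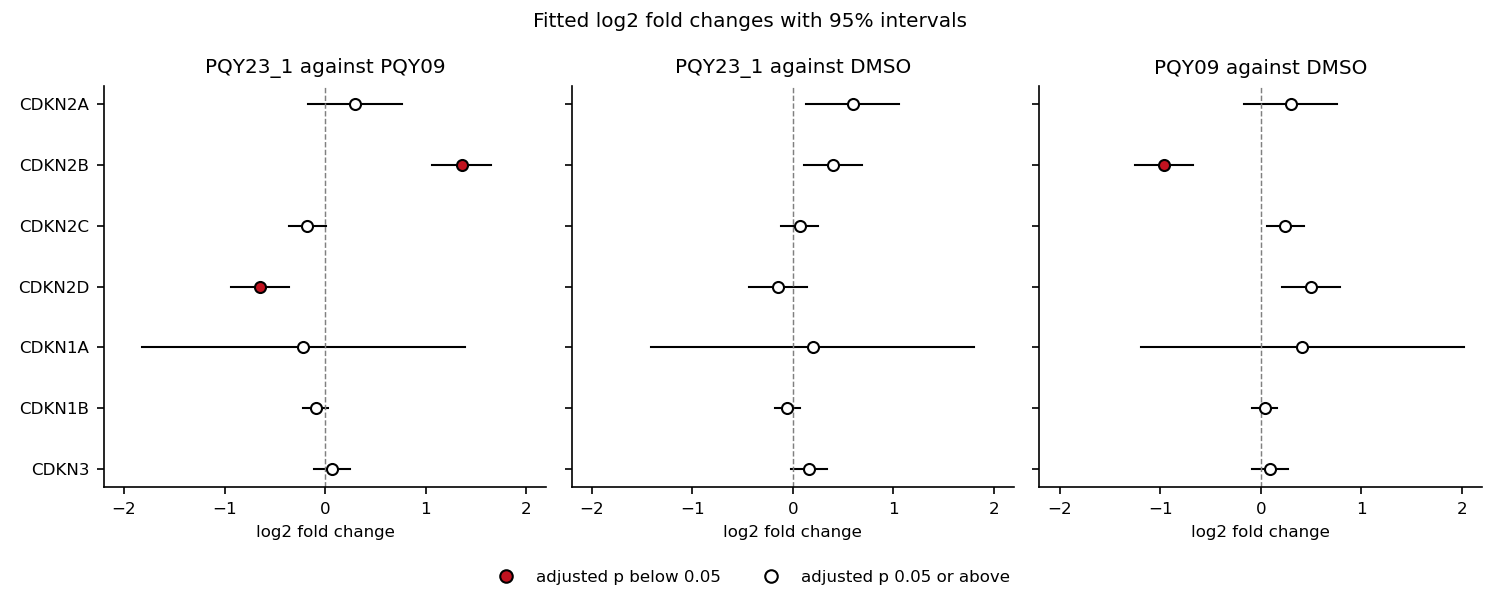
Fitted log2 fold changes (horizontal axes, first-named group over second) of the 7 tested inhibitor genes with 95% intervals in 3 contrasts; red points passed an adjusted p of 0.05. CDKN2B passes for PQY23_1 against PQY09 (1.36) and PQY09 against DMSO (-0.96), CDKN2D passes for PQY23_1 against PQY09 (-0.65), and the CDKN1A intervals span both sides of 0.

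Around CDKN2A and CDKN2B, CDKN2B-AS1 had 1.52, 1.42 and 1.56 CPM under PQY23_1, 0.963, 0.627 and 0.595 CPM under PQY09 and 1.12, 0.913 and 1.18 CPM in DMSO. Its mean was lowest in PQY09 and highest in PQY23_1, in the order of CDKN2B. The highest PQY09 library (0.963 CPM) lay above the lowest DMSO library (0.913 CPM). CDKN2B-AS1 overlaps CDKN2B, and their reads cannot be told apart if counting was unstranded. It did not pass by edgeR (log2 fold change 1.04 for PQY23_1 against PQY09, adjusted p = 0.0574, and 0.00309 with DESeq2 to 0.198 over the alternatives). MTAP, a methionine salvage enzyme on the other side of CDKN2A, had 42.2, 23.9 and 30.0 CPM under PQY23_1, 57.7, 27.4 and 64.3 CPM under PQY09 and 22.1, 29.5 and 20.2 CPM in DMSO, with overlapping ranges. Its log2 fold change was 1.06 ± 0.33 for PQY09 against DMSO, which edgeR did not call (adjusted p = 0.15) and DESeq2 did (adjusted p = 0.0141), and neither called it in the other contrasts.

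Of the 7 inhibitor genes, the pattern over the 9 libraries was matched most closely as follows, by Pearson r of log2 CPM among 10562 genes, as a description. The genes named have the highest of 10562 values over only 9 libraries, so their r is high in part by selection and was not tested. For CDKN2B the closest were IGFBP6 (r = 0.981), an insulin-like growth factor binding protein, CKAP4 (0.981) and UGT2B7 (0.972), a glucuronosyltransferase. IGFBP6 averaged 8.07 CPM under PQY23_1, 3.19 under PQY09 and 5.51 in DMSO. For CDKN2D they were FAM76A (0.988), PIP5K1A (0.966), a lipid kinase, and ACTA1 (0.951), the skeletal muscle actin, which averaged 2.84 CPM under PQY23_1, 11.3 under PQY09 and 4.51 in DMSO. For CDKN1A the best matches were lower, C7orf31 (0.91), CNOT3 (0.903) and CNNM1 (0.889). Those of CDKN2A were ABCB9 (0.983), ITPKA (0.973) and MGST3 (0.963), of CDKN2C SHMT1 (0.95), NFIL3 (0.938) and SNAPC5 (0.936), of CDKN1B GRHL1 (0.965), GEMIN8 (0.96) and CDC23 (0.959), and of CDKN3 TMEM115 (0.979), GSTM3 (0.972) and VDAC3 (0.959).

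Among the kinases the inhibitors act on, 0 of 9 G1 and S phase kinases and cyclins were called in any contrast by edgeR, DESeq2 or limma. At an unadjusted p below 0.05 there were 3 for PQY09 against DMSO, 2 for PQY23_1 against DMSO and 2 between the compounds, where 15.6%, 16.3% and 14.7% of all genes tested lay below it. CDK4, the main INK4 target, averaged 161 CPM under PQY23_1, 178 under PQY09 and 191 in DMSO, CDK6 averaged 85.5, 97.3 and 109, and CCND1 334, 303 and 320 CPM. CDK2, the main CIP/KIP target, averaged 23.2, 22.2 and 19.4 CPM, and RB1 56.6, 52.4 and 49.8 CPM. Of the 13 RB and E2F genes, 2 rose under PQY09 against DMSO, E2F1 (log2 0.36 ± 0.07, edgeR adjusted p = 0.0374) and E2F8 (0.54 ± 0.11, 0.0404), where 1.78% of all genes were called higher. The E2F1 call was lost in 8 of 9 cases when a library was left out and the E2F8 call in 7 of 9. E2F7, an atypical E2F that represses transcription, was lower under PQY23_1 than under PQY09 (-0.81 ± 0.13, edgeR adjusted p = 0.0186), with 7.87, 11.1 and 10.7 CPM against 17.3, 17.8 and 16.9 CPM. The E2F7 call was lost in 3 of 9 cases, and 1% of all genes were called lower in this contrast. Of 13 ubiquitin ligase genes and partners of CIP/KIP proteins, 0 were called by edgeR, DESeq2 or limma, with 2, 2 and 3 at an unadjusted p below 0.05 in the 3 contrasts, and SKP2, which marks CDKN1B for degradation, averaged 30.5, 37.2 and 31.9 CPM.

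Of the 25 transcription regulators of the inhibitor genes reported here, FOXO1, a forkhead factor that activates CDKN1B, fell under both compounds against the shared DMSO libraries, with log2 fold changes of -0.49 ± 0.08 under PQY23_1 (edgeR adjusted p = 0.0171) and -0.46 ± 0.08 under PQY09 (0.0179). FOXO3 fell under PQY23_1 (-0.53 ± 0.11, 0.0433), and ID1 rose under PQY09 (0.41 ± 0.08, 0.0401). Leaving out a library lost the FOXO1 call in 3 of 9 cases under PQY23_1 and 6 of 9 under PQY09. The FOXO3 call was lost in 9 of 9 and the ID1 call in 7 of 9. Against DMSO, edgeR called 1.51% of all genes higher and 1.04% lower under PQY23_1, and 1.78% and 1.07% under PQY09. Of 18 growth arrest and stress genes, BTG2, an antiproliferative gene, rose under PQY09 against DMSO (0.47 ± 0.07, 0.0124) and was lower under PQY23_1 than under PQY09 (-0.63 ± 0.07, 0.00375). TNFRSF10B fell under PQY23_1 against DMSO (-0.27 ± 0.05, 0.0392), and MDM2 averaged 125, 119 and 133 CPM with no call. With a library left out, the TNFRSF10B call was lost in 8 of 9 cases and the BTG2 call against DMSO in 4 of 9. Between the compounds, edgeR called 1% of all genes lower.

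Of the 11 genes reported here from a list of TGF-beta and BMP targets, 6 rose under PQY09 against DMSO by edgeR. The list does not separate TGF-beta targets from BMP targets. Of all genes, edgeR called 1.78% higher, and limma called 5 of the 11. In this contrast 8 of the 11 lay above 0, while SKI (-0.16), SKIL (-0.11) and TGFBI (-0.11) lay below it with no call. Among those above 0, PMEPA1 (0.73) and SMAD6 (0.17) were not called either. SMAD7, CCN2, ID1, ID2, ID3 and LTBP2 rose by 0.41 to 0.71 on the log2 scale. Only the ID2 call among these was kept whichever library was left out, and the others were lost in 5 to 7 of 9 cases. The list was chosen with earlier results of these data known. Under PQY23_1 against DMSO, LTBP2 rose (0.65 ± 0.11, edgeR adjusted p = 0.0247) and SKI fell (-0.43 ± 0.07, 0.019). With a library left out, the LTBP2 call under PQY23_1 was lost in 7 of 9 cases and the SKI call in 4 of 9. Of all genes, edgeR called 1.51% higher and 1.04% lower in this contrast. Between PQY23_1 and PQY09, SMAD7 (-0.53 ± 0.11, 0.0413) and CCN2 (-0.59 ± 0.07, 0.00446) were lower, where 1% of all genes were called lower. The SMAD7 call was lost in 8 of 9 cases, and the CCN2 call was kept in 9 of 9.

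Of 16 G2 and M phase genes, HMMR rose under both compounds against DMSO (0.34 ± 0.06, 0.0176 under PQY23_1 and 0.33 ± 0.06, 0.0178 under PQY09). These calls were lost in 5 of 9 and 6 of 9 cases with a library left out. Of all genes, edgeR called 1.51% and 1.78% higher in these contrasts, and 1.22% higher under PQY23_1 than under PQY09. Of 9 tested genes of the imprinted domain around CDKN1C, SLC22A18 rose under PQY23_1 against DMSO (0.59 ± 0.12, 0.0395), and PHLDA2 was higher under PQY23_1 than under PQY09 (1.20 ± 0.19, 0.0145). The SLC22A18 call was lost in 8 of 9 cases and the PHLDA2 call in 3 of 9. Of the 23 calls in these lists, 3 were kept whichever library was left out, namely BTG2 and CCN2 between the compounds and ID2 for PQY09 against DMSO.

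**Figure D5:**
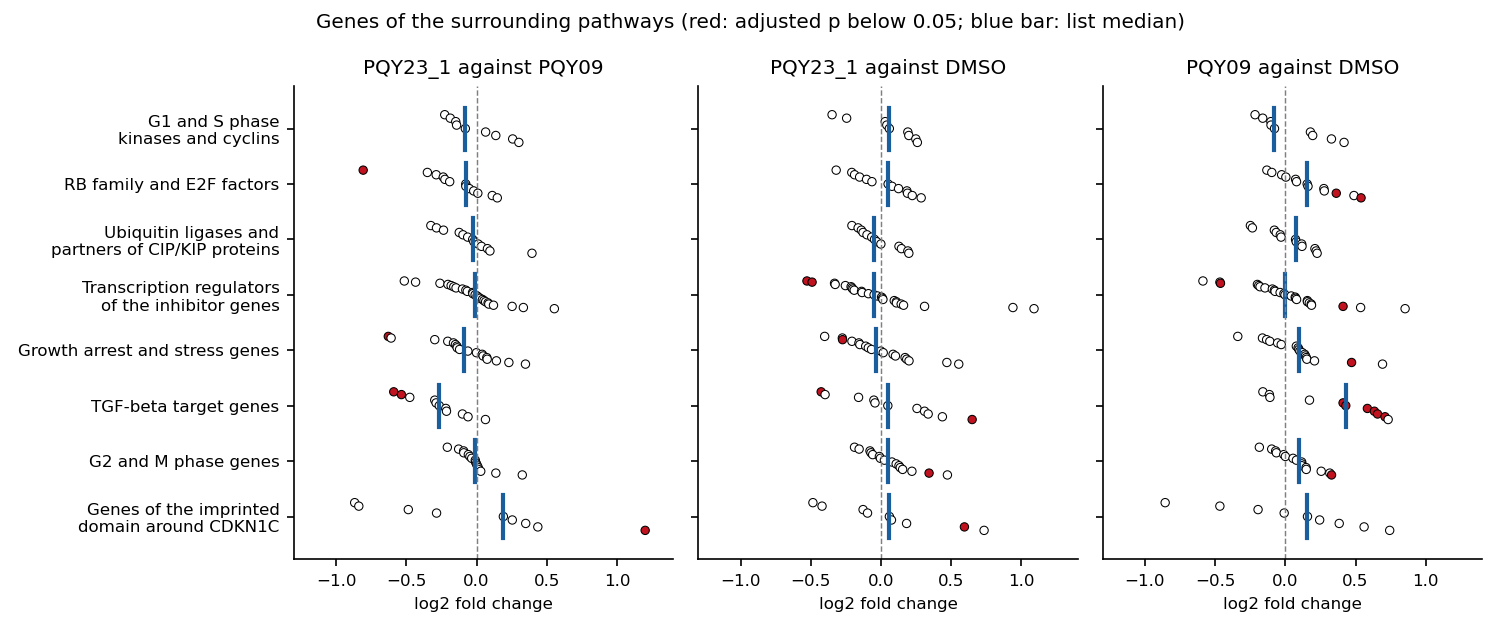
Log2 fold changes (horizontal axes, first-named group over second) of genes in 8 pathway lists around the inhibitors, a point per gene, red where adjusted p was below 0.05, with the list median as a blue bar. The 11 genes shown from the list labelled TGF-beta target genes, which also holds BMP targets, have the most red points for PQY09 against DMSO, 6, all above 0.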

How the data were processed

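The 9 HepG2 RNA libraries were grouped by the treatment label, 3 per group. The submitters' processing notes name hg38, StringTie 1.3.4d, HISAT2 2.0.4, cutadapt 1.9, DESeq2 and edgeR, with no role for each. The authors deposited estimated counts (expected counts, whole numbers) and FPKM, which corrects for gene length and library size, for 60612 genes. Deposited FPKM is 1e-04 where the count is 0. Low counts pile up at 4 (10696 values, against 4024 at 3 and 2277 at 5), and the counts per fragment are not given, so the limit for a count of 0 covers counting error only. The intervals of log2 fold changes come from the fit and hold the spread among libraries. The labels do not say whether replicates are separate cultures, and p-values therefore reflect only the spread among these libraries, which may be technical.

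Counts were rounded, filtered by filterByExpr (minimum count 10, minimum total 15), scaled by TMM (factors 0.977 to 1.026) and fitted at once over 9 libraries in edgeR 4.0.16 (R 4.3.3), with the quasi-likelihood F test and Benjamini-Hochberg adjustment over 20157 genes. A gene was called below 0.05. SE is the size of the log2 fold change over the square root of F. The script was tested on simulated data. Alternatives used DESeq2 1.42.0, limma 3.58.1 on log2(FPKM + 1) or log2(FPKM + 0.1), no filter, other scaling, counts divided by 4, the compared groups only, a replicate block and each library left out. All 8 genes are named, list members where called, a fixed panel, and the 3 genes closest by Pearson r. Members and lists were chosen with earlier results of these data known. CDKN2A-AS1 was not analysed here, and some other list genes are not reported here.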

Additional observations from a re-analysis of the deposited data

Results flagged for a closer look

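CDKN2B and CDKN2D stood out because the change under PQY23_1 and the change under PQY09, each against DMSO, differed when that difference was itself tested. For CDKN2B the PQY23_1 change minus the PQY09 change was 1.36 on the log2 scale (edgeR quasi-likelihood test, adjusted p = 0.00128), with all 3 PQY23_1 libraries above all 3 PQY09 libraries. For CDKN2D it was -0.65 (edgeR adjusted p = 0.038), with all 3 PQY23_1 libraries below all 3 PQY09 libraries. The test of this difference is the same as the test between the compounds, since the DMSO libraries cancel.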

How the results depend on the processing

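Of 357 alternative values of the 7 tested inhibitor genes, 336 kept direction and side of the threshold. The calls of CDKN2B were kept in all 17 alternatives, with adjusted p of 1.21e-09 to 0.0357 for PQY09 against DMSO and 3.65e-19 to 0.0117 for PQY23_1 against PQY09. Members called for PQY09 against DMSO were 2 with DESeq2 and with limma on log2(FPKM + 1) or log2(FPKM + 0.1), against 1, and for PQY23_1 against PQY09 were 1 with no filter (CDKN2D adjusted p = 0.0662), with the compared groups only (0.0932) or with the block, and 1 to 2 when a library was left out, against 2. Genes called were 1464, 1468 and 1251 with DESeq2 for PQY09 against DMSO, PQY23_1 against DMSO and PQY23_1 against PQY09, against 574, 514 and 448, and with the compared groups only 224 for PQY23_1 against DMSO and 295 for PQY23_1 against PQY09. Leaving out a library gave 235 to 628, 138 to 371 and 222 to 397.

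CDKN1A turned sign as libraries were left out, over -0.014 to 0.81 for PQY09 against DMSO, -0.23 (also -0.05 and -0.08) to 0.61 for PQY23_1 against DMSO and -0.61 to 0.20 (also 0.08) for PQY23_1 against PQY09. Left-out libraries also moved CDK2 over -0.071 to 0.17 for PQY23_1 against PQY09. For PQY23_1 against DMSO, SKP2 ranged over -0.12 to 0.014 and MDM2 over -0.17 to 0.026. The cause was not tested.

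Same-numbered libraries did not deviate together (9 pairs, r = -0.16 to 0.07). No pairing by replicate number was thus detected, which cannot show that same-numbered libraries were handled apart. With the replicate block, 342, 237 and 267 genes were called, 1 inhibitor gene was called between the compounds, and the log2 fold change of CDKN1A there was 0.057.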
